A study of Homo sapiens with 6 samples.

Results

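Integrins are receptors made of an alpha and a beta subunit that span the cell membrane, bind proteins of the extracellular matrix or of other cells outside, and connect to the actin or keratin skeleton inside. Laminins are the main cell-binding proteins of the basement membrane on which breast epithelium sits, and each is a trimer of an alpha, a beta and a gamma chain. Which receptor a cell can form depends on which partners are present, since most alpha subunits bind a single beta subunit while beta1 accepts many alphas, so the genes are described here by pair and by chain. All rows named as an integrin alpha, an integrin beta or a laminin alpha, beta or gamma chain were taken by gene symbol, which gave 37 genes of the 33451 in the count table. The 36 described here are 17 integrin alpha subunits, 8 integrin beta subunits and 11 laminin chains.

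Libraries were made from mRNA of MDA-MB-453, an established human breast cancer cell line of luminal type. Cells of the experimental group (EG) received 100 nM 25(OH)D, the circulating form of vitamin D, for 5 days, and cells of the control group (CG) for the same time with the alcohol solvent alone, at 0.1%. Each group had 3 libraries, and both groups were of the same line without any genetic change. The study asked how 25(OH)D alters breast cancer cells.

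The libraries held between 33268860 and 40928176 counts, so that 3 counts, taken as the floor, were worth between 0.0720 and 0.0921 counts per 1000000 (CPM). The mitochondrial share of the counts was 7.85% to 7.99% in CG and 8.89% to 9.24% in EG. It differed between the groups, and its part in the results was not tested. All 8 luminal markers given here were expressed, with a summed level between 4420 and 4560 CPM in CG and between 4440 and 4460 CPM in EG. Of these, GATA3, KRT19 and FOXA1 fell and ERBB2, KRT8 and KRT18 rose, and the part of this in the results was not tested. The 6 basal or myoepithelial markers summed to between 2.98 and 3.45 CPM in CG and between 3.17 and 3.58 CPM in EG. One of the 3 tested, TP63, fell, from 12, 26 and 19 counts to 3, 2 and 2, and it passed the low-count filter only through CG. KRT5 (log2 fold change 1.21) and MYLK (-0.084) were not called. KRT14, not tested, had 4, 6 and 1 counts in CG and 24, 8 and 12 in EG. Mean CPM of KRT17 (0.0854 and 0.218) and ACTA2 (0.182 and 0.319), not tested either, was also higher in EG. None of these markers was at 0 in all libraries. Fibroblast markers summed to between 36.5 and 39.0 CPM in CG and between 32.0 and 34.7 CPM in EG, nearly all of it COL1A1, which fell (log2 fold change -0.18, adjusted p = 0.0320), while LUM was at 3 counts or fewer in all 6 libraries. Markers of endothelium (0.312 to 0.489 CPM in CG and 0.104 to 0.430 in EG, KDR and TEK at 3 counts or fewer) and of platelets (2.81 to 3.33 and 2.06 to 3.47 CPM, PPBP and GP9 at 3 counts or fewer) were low, and the only 1 of them that passed the filter, GP1BA, was not called. The part of these markers in the results was not tested.

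Genes were tested between the groups with edgeR's quasi-likelihood test on the counts, with p-values adjusted by the Benjamini-Hochberg method over the 18183 genes that passed a filter on low counts, and a gene was called at an adjusted p under 0.05. Each log2 fold change is given with its standard error (SE). Of the 36 genes, 20 passed the filter (15 integrin subunits and 5 laminin chains). Of these, 11 were called (55.0%), against 33.8% of all genes tested. The called genes moved both ways. Higher in EG were 7 of the 20, namely the integrin subunits ITGAL, ITGA2, ITGAV, ITGB5 and ITGB1 and the laminin chains LAMC1 and LAMB2, where 17.3% of all genes tested were higher. Lower in EG were 4, all of them integrin subunits (ITGA6, ITGB4, ITGAE and ITGA3), where 16.5% of all genes tested were lower. The median log2 fold change was -0.091 over the 15 integrin subunits, 0.027 over the 5 laminin chains and -0.011 over all genes tested. CG and EG libraries took separate ranges in 13 of the 20 genes, against 45.7% of all genes tested. At a second limit, a log2 fold change beyond 1 in size and a p under 0.05 before adjustment, ITGAL was higher and ITGA5 lower. This limit does not adjust the p, and ITGA5 was not called (adjusted p = 0.0852). ITGA5 passed the filter only through CG, where it was higher. Of all genes tested, 4.02% were higher at this second limit, 2.63% lower and 6.65% either.

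**Figure D1:**
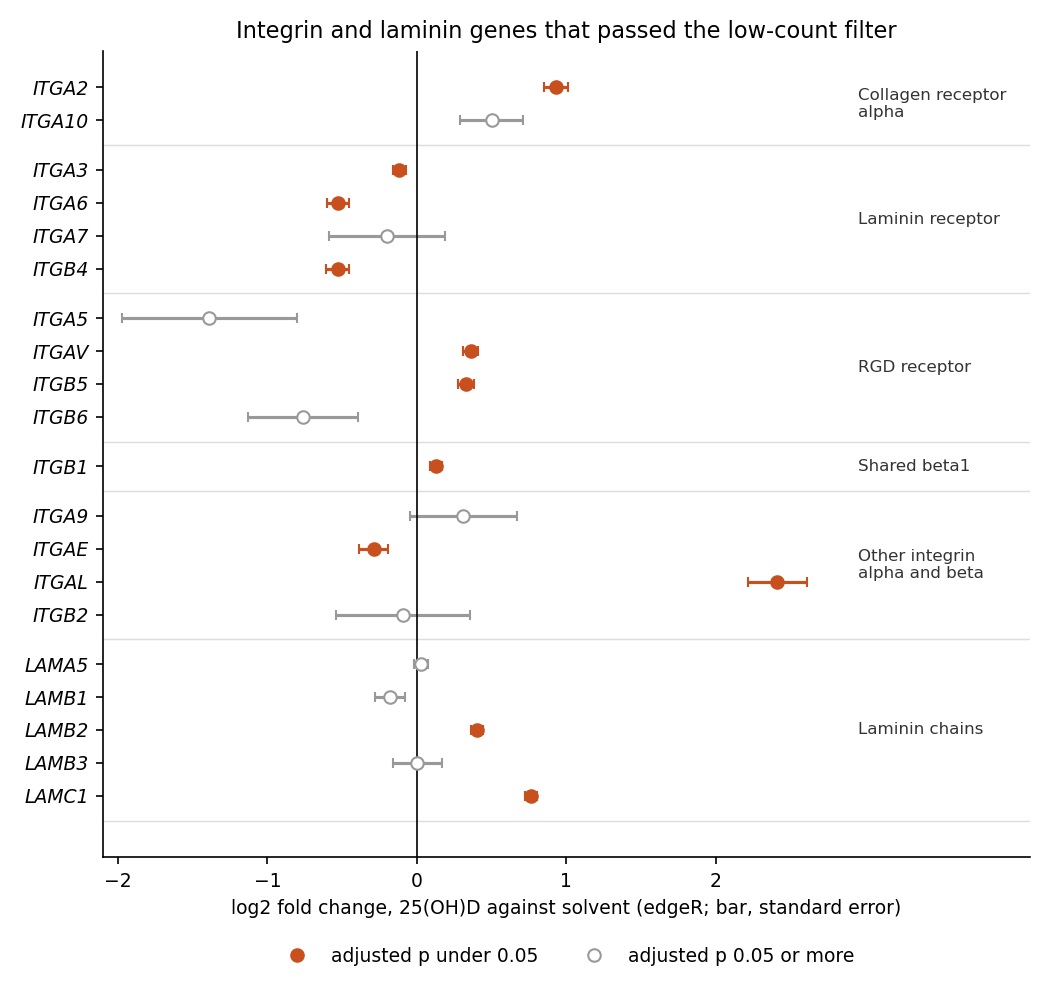
Log2 fold change of EG against CG (x axis, edgeR, bars are standard errors) of the 20 integrin and laminin genes that passed the low-count filter, grouped by the ligand of the receptor (y axis). Filled points, an adjusted p under 0.05, lie on both sides of 0, with ITGAL at 2.41 farthest to the right and ITGA6 and ITGB4 at the same value of -0.53.

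The remaining 16 genes did not pass the filter and had few counts in every library. Among the 10 integrin subunits of this kind the highest count in any library was 19, in ITGB7, and among the 6 laminin chains it was 8, in LAMA3. No count of ITGAD, LAMA1, LAMA4 or LAMB4 was above 3. ITGA2B, the alpha subunit of the platelet fibrinogen receptor, had 0, 2 and 0 counts in CG and 8, 8 and 6 in EG, while its partner ITGB3 had 4, 4 and 4 counts in CG and 0, 1 and 0 in EG. These are counts of 8 or fewer in every library, and no fold change is given for them. The CPM of ITGA2B, ITGB3 and ITGA1 did not overlap between the groups. The share of genes without overlap was not computed among those that did not pass the filter, so this is a description only. ITGB3 shares 51.6% of its exon bases with RP11-290H9.2 on the same strand, which had 6, 2 and 0 counts in CG and 0, 2 and 0 in EG. With all 36 genes tested and no filter on low counts, ITGA2B passed the limits on fold and unadjusted p, and none of the 16 genes was called at an adjusted p under 0.05.

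Of the 5 laminin chains tested, LAMC1 and LAMB2 rose, while the alpha chain LAMA5 and the beta chains LAMB1 and LAMB3 were not called. LAMC1, the gamma chain of most laminins, was measured at 147, 157 and 152 CPM in CG and at 261, 254 and 256 CPM in EG. Every EG library lay above every CG library, and the level rose 1.69-fold (log2 fold change 0.76, SE 0.0399, adjusted p = 2.68e-09). LAMB2, the beta chain of laminin-521, was found at 249, 248 and 266 CPM in CG and at 328, 340 and 337 CPM in EG. This was a rise of 1.32-fold without overlap (log2 fold change 0.40, SE 0.0393, adjusted p = 2.07e-06).

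LAMA5, the alpha chain of laminin-511 and laminin-521, was measured at 107, 103 and 103 CPM in CG and at 103, 110 and 106 CPM in EG. The groups overlapped, and LAMA5 differed by 0.027 on the log2 scale (SE 0.0442, adjusted p = 0.685). LAMB1, the beta chain of laminin-111 and laminin-511, ranged from 15.1 to 20.4 CPM in CG and from 14.7 to 15.9 CPM in EG, and LAMB3, a beta chain of epithelial laminin, from 3.69 to 3.89 and from 3.13 to 4.60 CPM. Both overlapped between the groups (log2 fold changes of -0.18 and 0.0011, adjusted p = 0.195 and 0.997).

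Levels of different chains were compared per length, as RPKM. In CG the order was LAMB2 (37.6 ± 1.27 RPKM, SD, n = 3), LAMC1 (18.4 ± 0.654), LAMA5 (7.39 ± 0.168), LAMB1 (2.18 ± 0.333) and LAMB3 (0.815 ± 0.0263), and no 2 neighbours overlapped. Among the alpha chains LAMA5 held 99.8% of the summed RPKM in CG and 99.6% in EG. The summed RPKM of the 4 beta chains was 40.6 ± 1.20 in CG and 50.7 ± 1.29 in EG (SD, n = 3), and that of the 5 alpha chains 7.41 ± 0.182 and 7.33 ± 0.303. For the beta sums the groups did not overlap, and the two-sided exact permutation test gave p = 0.1, the smallest that 3 libraries against 3 allow, while the alpha sums gave p = 0.8. Over the 4 sums of integrin or laminin genes compared, the smallest adjusted p of this exact test was 0.2.

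**Figure D2:**
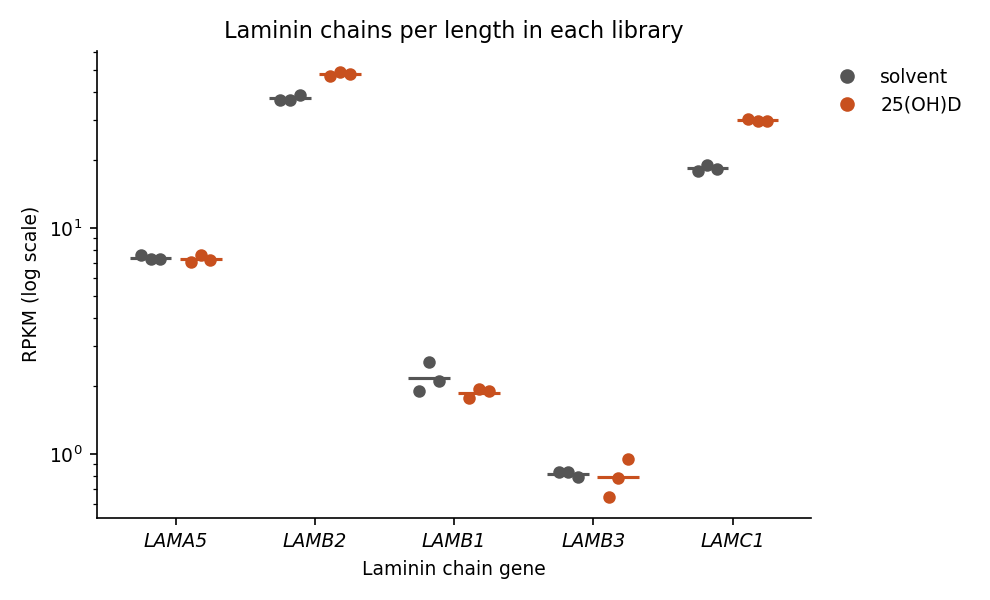
RPKM (y axis, log scale) of the 5 laminin chain genes that passed the filter (x axis) in each CG and EG library, with the mean as a line. The points of LAMC1 and LAMB2 lie apart between the groups, while those of LAMA5, between 7.04 and 7.63 RPKM, do not.

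Of 7 laminin trimers looked at, all 3 chains passed the filter only for laminin-521 (LAMA5, LAMB2 and LAMC1) and laminin-511 (LAMA5, LAMB1 and LAMC1). LAMA5 was the chain with the lowest RPKM of laminin-521 in both groups (7.39 RPKM in CG and 7.30 in EG), and LAMB1 that of laminin-511 (2.18 and 1.86 RPKM). The ratio of LAMA5 to LAMC1 was 0.427, 0.384 and 0.398 in the CG libraries and 0.231, 0.255 and 0.243 in the EG libraries, on the RPKM scale. The groups did not overlap, with a log2 difference of -0.73 (two-sided exact permutation test, p = 0.1, the smallest that 3 libraries against 3 allow). This ratio was among 9 chosen after the values of the genes had been seen, all of which reached that smallest p.

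The promoters of LAMC1, which rose, and of LAMA5, which was not called, are shown as the 250 bases before the annotated start, since these chains of one trimer differed in response. The sequences are those of RefSeq on GRCh38.p14, where 25 of the 36 genes and 8 of the 11 called genes were matched. Capitals mark the GC box GGGCGG on either strand. For genes with several annotated starts the window of the first is shown. The LAMC1 window lies at chr1:183023170-183023419 on the plus strand and the LAMA5 window at chr20:62367313-62367562 on the minus strand.
LAMC1: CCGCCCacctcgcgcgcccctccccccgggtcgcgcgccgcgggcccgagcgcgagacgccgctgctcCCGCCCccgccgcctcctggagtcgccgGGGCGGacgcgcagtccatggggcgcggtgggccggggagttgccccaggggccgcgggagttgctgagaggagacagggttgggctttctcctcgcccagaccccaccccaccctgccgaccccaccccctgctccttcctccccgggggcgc
LAMA5: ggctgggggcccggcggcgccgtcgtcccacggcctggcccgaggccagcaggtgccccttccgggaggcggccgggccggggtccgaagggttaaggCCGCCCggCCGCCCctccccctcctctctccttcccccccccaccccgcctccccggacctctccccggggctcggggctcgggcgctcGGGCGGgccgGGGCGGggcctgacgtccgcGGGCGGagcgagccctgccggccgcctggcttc
The LAMC1 window held 3 GC boxes and the LAMA5 window 5, and 42.6% of all 35116 promoter windows of this length held at least 1. Neither window held any of the vitamin D receptor half-sites, searched on both strands as AGGTCA, as AGTTCA, as GGGTCA or as GGTTCA, which were in 33.8% of all windows. No motif searched shares letters with another in these windows.

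**Figure D3:**
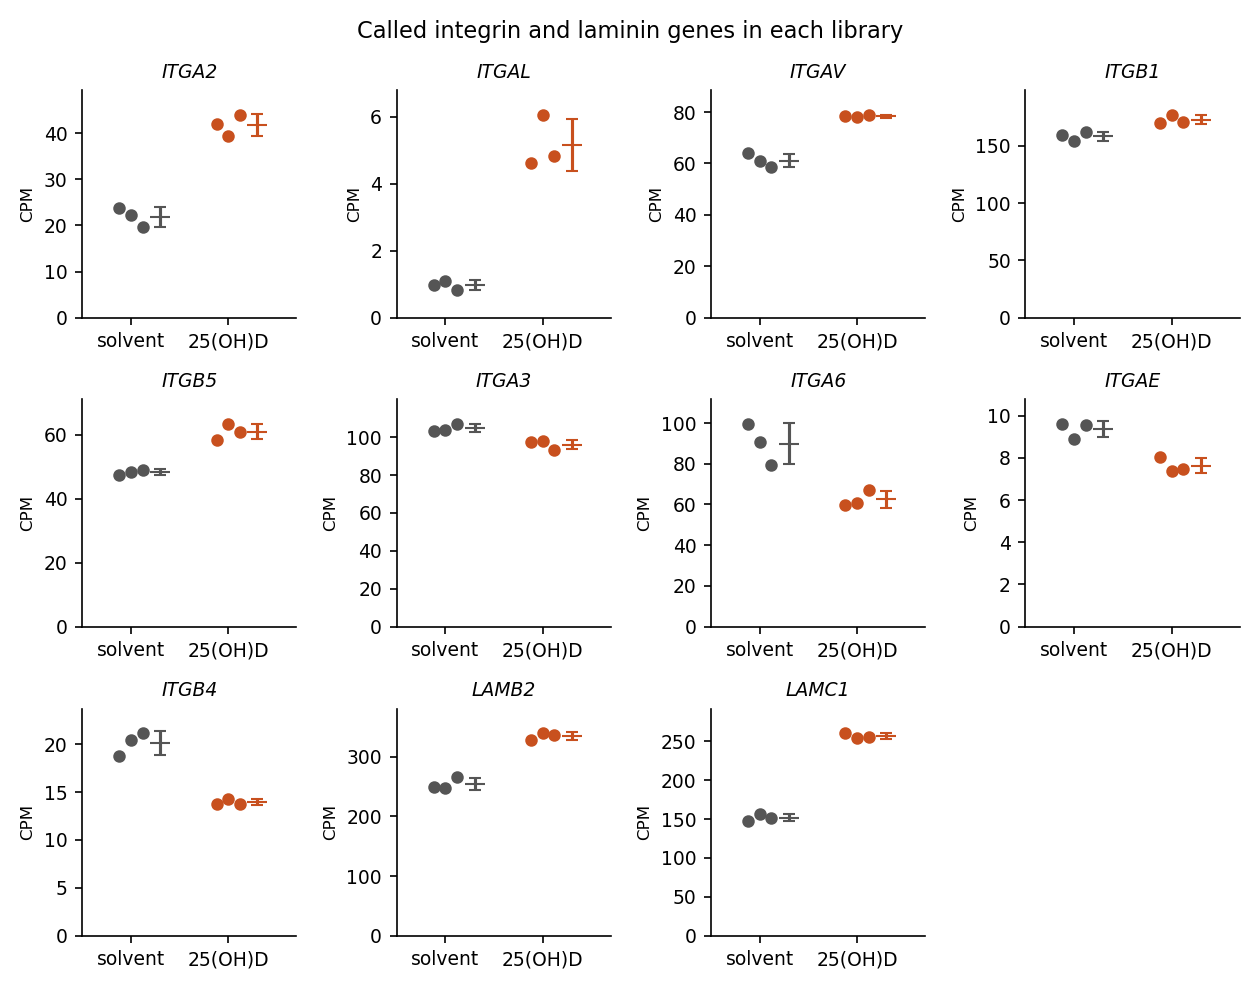
CPM (y axis, from 0) of the 11 called genes in the 3 solvent (CG) and 3 25(OH)D (EG) libraries, with the mean and SD beside the points. Within each panel the points of the groups do not overlap, and the gap is widest relative to the level in ITGAL, from 0.970 to 5.16 CPM in the mean.

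Among the receptors for laminin, the alpha and beta partners of the hemidesmosome receptor fell together. ITGA6, which pairs with ITGB1 or ITGB4 to bind laminins, was measured at 99.6, 90.6 and 79.6 CPM in CG and at 59.6, 60.8 and 67.2 CPM in EG. The CG libraries spread more than those of EG but did not overlap them, and the level was 1.44-fold lower in EG (log2 fold change -0.53, SE 0.0736, adjusted p = 6.46e-05). ITGB4, whose long tail links the receptor to keratin filaments, stood at 18.8, 20.4 and 21.2 CPM in CG and at 13.8, 14.3 and 13.8 CPM in EG. It was also 1.44-fold lower in EG (log2 fold change -0.53, SE 0.0771, adjusted p = 9.79e-05). ITGA6 shares 125 exon bases with AC078883.3 on the opposite strand, which also fell (log2 fold change -0.62, adjusted p = 0.000312). It shares 174 and 52 with AC078883.4 and AC093818.1 on that strand, which were not called (log2 fold changes of -0.40 and -0.33, adjusted p = 0.0789 and 0.143). The ratio of ITGA6 to ITGB4 was 5.50, 4.60 and 3.90 in CG and 4.48, 4.41 and 5.04 in EG on the RPKM scale, a log2 difference of 0.0048 with overlapping groups (two-sided exact permutation test, p = 1.0).

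ITGA3, which pairs with ITGB1 to bind laminin-511 and other laminins, was at 103, 104 and 107 CPM in CG and at 97.3, 97.7 and 93.1 CPM in EG. This small fall of 1.09-fold did not overlap between the groups (log2 fold change -0.12, SE 0.0435, adjusted p = 0.0428). It was lost whichever library was left out, with adjusted p-values from 0.0851 without CG replicate 1 to 0.170 without EG replicate 3, and with a replicate block (adjusted p = 0.0588). ITGA7, a laminin receptor subunit best known in muscle, was low and overlapped between the groups (25 to 37 counts in CG and 15 to 39 in EG, log2 fold change -0.20, adjusted p = 0.738).

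ITGB1, the beta subunit shared by most matrix receptors, was the most abundant integrin gene per length, at 26.7 ± 0.563 RPKM in CG and 28.3 ± 0.824 RPKM in EG (SD, n = 3). Its CPM were 159, 154 and 162 in CG and 170, 177 and 171 in EG. The groups did not overlap, and the rise was 1.09-fold (log2 fold change 0.13, SE 0.0400, adjusted p = 0.0243). The call was lost without CG replicate 2 (adjusted p = 0.1) or EG replicate 2 (0.0957) and with library sizes not scaled by TMM (0.130).

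Of the collagen receptors, ITGA2, the alpha subunit that binds collagen together with ITGB1 on epithelium and platelets, rose. It stood at 23.8, 22.3 and 19.6 CPM in CG and at 42.0, 39.4 and 44.0 CPM in EG. Every EG library was above every CG library, a rise of 1.91-fold (log2 fold change 0.93, SE 0.0773, adjusted p = 3.55e-07). ITGA10, a collagen receptor subunit of cartilage, was found at 1.80, 2.35 and 1.6 CPM in CG and at 2.56, 2.39 and 3.19 CPM in EG. The groups did not overlap, but the test was not passed (log2 fold change 0.50, SE 0.209, adjusted p = 0.0852). The other collagen receptor subunits ITGA1 and ITGA11 had at most 6 counts in any library.

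ITGAV and ITGB5, the partners of a receptor for vitronectin and other proteins with an RGD motif, rose by similar amounts. ITGAV was measured at 63.9, 61.0 and 58.5 CPM in CG and at 78.3, 77.9 and 78.9 CPM in EG. ITGB5 was measured at 47.5, 48.4 and 49.1 CPM in CG and at 58.5, 63.4 and 61.0 CPM in EG. Neither gene overlapped between the groups, with a rise of 1.28-fold for ITGAV (log2 fold change 0.36, SE 0.0496, adjusted p = 5.93e-05) and of 1.26-fold for ITGB5 (log2 fold change 0.33, SE 0.0525, adjusted p = 0.000178). ITGAV shares 203 exon bases with AC017101.10 on the opposite strand, which was not called (log2 fold change 0.38, adjusted p = 0.0618). The ratio of ITGAV to ITGB5 on the RPKM scale was 1.06, 0.990 and 0.934 in CG and 1.05, 0.965 and 1.02 in EG. The log2 difference of that ratio was 0.025, with overlapping groups (two-sided exact permutation test, p = 0.8).

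The promoters of ITGAV and ITGB5 are shown because both partners rose, again as the 250 bases before the annotated start, from RefSeq on GRCh38.p14. Capitals mark the same half-sites on either strand. The ITGAV window lies at chr2:186589806-186590055 on the plus strand and the ITGB5 window at chr3:124901419-124901668 on the minus strand.
ITGAV: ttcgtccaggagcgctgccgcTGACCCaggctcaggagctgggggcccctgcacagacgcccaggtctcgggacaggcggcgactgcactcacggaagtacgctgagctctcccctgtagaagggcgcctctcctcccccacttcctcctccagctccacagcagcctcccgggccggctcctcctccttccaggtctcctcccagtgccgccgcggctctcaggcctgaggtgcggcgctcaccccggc
ITGB5: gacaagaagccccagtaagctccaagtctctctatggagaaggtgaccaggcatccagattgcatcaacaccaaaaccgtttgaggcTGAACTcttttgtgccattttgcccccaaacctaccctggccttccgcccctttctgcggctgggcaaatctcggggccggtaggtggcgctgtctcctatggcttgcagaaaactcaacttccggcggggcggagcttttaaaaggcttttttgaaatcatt
Each of these windows held 1 half-site, and 33.8% of all windows held at least 1. The matched windows of LAMB2, ITGB1 and ITGA2, which rose too, held 0. Of genes that fell, the window of ITGAE held 1 and those of ITGA6 held 0. At later annotated starts, the other ITGAV window (chr2:186599955-186600204) held 2 half-sites, and the other ITGB5 windows (chr3:124887685-124887934 and chr3:124887366-124887615) held 0. The direct repeat of such half-sites with 3 bases between them, the classical element of the vitamin D receptor, was in none of the windows of the 25 matched genes and in 0.0655% of all windows. A match of these letters is a description and does not show binding.

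Other subunits that bind RGD ligands were low. ITGA5, the alpha subunit of the fibronectin receptor, had 22, 16 and 18 counts in CG and 2, 4 and 13 in EG. ITGA5 passed the low-count filter only through CG, where it was higher, so its entry to the test was not independent of its direction. The groups did not overlap, but the EG libraries differed widely among themselves. The test was not passed (log2 fold change -1.39, SE 0.586, adjusted p = 0.0852). Without EG replicate 3 the log2 fold change was -2.51 (adjusted p = 0.0100), and at the limits on fold and unadjusted p the gene was lost without any other single library. ITGB6, an epithelial partner of ITGAV, overlapped between the groups, from 0.869 to 1.42 CPM in CG and from 0.390 to 0.982 CPM in EG (log2 fold change -0.76, SE 0.368, adjusted p = 0.134). Without EG replicate 3 its log2 fold change was -1.13 (adjusted p = 0.0456).

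ITGAL, the alpha subunit of the leukocyte receptor for ICAM molecules, had the largest fold change of the 20 tested genes. It had 41, 42 and 30 counts in CG and 162, 233 and 157 in EG, or 0.985, 1.11 and 0.815 CPM and 4.61, 6.06 and 4.82 CPM. The EG libraries were all far above those of CG, a rise of 5.31-fold (log2 fold change 2.41, SE 0.197, adjusted p = 3.08e-07). ITGB2, the only beta subunit known to pair with it, had 11, 12 and 12 counts in CG and 10, 10 and 10 in EG and overlapped once scaled to the library size (log2 fold change -0.091, SE 0.449, adjusted p = 0.902). The ratio of ITGAL to ITGB2 was 3.91, 3.68 and 2.63 in CG and 17.0, 24.5 and 16.5 in EG on the RPKM scale. The 7 leukocyte markers, ITGB2 among them, summed to between 0.598 and 0.846 CPM in CG and between 0.552 and 0.832 CPM in EG. Of these markers CD3E and CD79A had 3 counts or fewer in every library, and PTPRC, the common leukocyte antigen, had at most 6. At such low counts the sum cannot show whether leukocyte genes moved with ITGAL. The part of leukocytes in the rise of ITGAL was not tested. In bulk libraries, a change in the number of cells with a transcript and a change in its amount per cell cannot be told apart.

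ITGAL shares 415 of its 6472 exon bases (6.41%) with RP11-297C4.2 on the opposite strand, which also rose, from 10, 10 and 8 counts to 37, 32 and 31 (log2 fold change 1.96, adjusted p = 0.000959). The library kit keeps the strand, but whether the counting used it is not given in the sources used here, so that reads of ITGAL, ITGAE, ITGA6 and ITGAV cannot be told apart from those of genes that overlap them on the opposite strand if it was not. In ITGB7, which shares 42.1% of its exon bases with ZNF740 on the opposite strand, the highest count was 19, where ZNF740 had between 748 and 1106. The other leukocyte subunits ITGAM, ITGAX and ITGAD had at most 8 counts in any library.

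ITGAE, the alpha subunit that binds E-cadherin together with ITGB7 on lymphocytes of epithelia, was measured at 9.61, 8.91 and 9.56 CPM in CG and at 8.02, 7.39 and 7.49 CPM in EG. It fell without overlap, by 1.23-fold (log2 fold change -0.29, SE 0.0992, adjusted p = 0.0339). The call was lost with DESeq2 (adjusted p = 0.0600) and without CG replicate 1, 2 or 3 or EG replicate 2 or 3 (adjusted p from 0.0517 to 0.112). It shares 427 of its exon bases with GSG2 on the opposite strand, which fell as well (log2 fold change -0.43, adjusted p = 0.00716). ITGB7, its only known partner, had between 4 and 19 counts in all libraries. ITGA9, which binds tenascin and other ligands, had at most 29 counts and overlapped between the groups (log2 fold change 0.31, adjusted p = 0.549).

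Of 24 known receptor pairs, both partners passed the filter for 12, among them all 4 of the laminin receptors, 4 of 8 of the RGD receptors, 2 of 4 of the collagen receptors, 1 of 3 of the receptors with ITGA4 or ITGA9 and 1 of 5 of the leukocyte receptors. ITGA6 to ITGB4 and ITGAV to ITGB5 had the smallest differences of the ratio between the groups, with both partners called in the same direction. CG and EG ratios took separate ranges in 7 of the 12 pairs, where the two-sided exact permutation test gave p = 0.1, the smallest possible (0.171 after Benjamini-Hochberg adjustment over the 12 pairs). Among single genes tested, 45.7% took separate ranges, and the share among ratios of other genes was not computed. Most of these 7 ratios share ITGB1, so they are not independent. Those with ITGA5, ITGB2 or ITGB6 rest on low counts. The ratio of ITGA2 to ITGB1 was 0.105 ± 0.0117 in CG and 0.184 ± 0.0137 in EG, that of ITGA6 to ITGB1 was 0.523 ± 0.0634 and 0.333 ± 0.025, and that of ITGA3 to ITGB1 was 0.405 ± 0.00727 and 0.341 ± 0.00861 (SD, n = 3).

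Among the 11 alpha subunits that pair with ITGB1, the summed RPKM was 35.8 ± 2.11 in CG and 34.3 ± 0.559 in EG (SD, n = 3, two-sided exact permutation test, p = 0.4), while the shares within it differed. ITGA6 made up 41.1, 39.2 and 36.7% of the sum in CG and 26.4, 27.1 and 28.8% in EG. ITGA2 made up 8.13, 7.96 and 7.44% in CG and 15.4, 14.5 and 15.6% in EG. Neither overlapped between the groups. The share of ITGAV also lay apart, at 21.1 ± 0.252% and 27.4 ± 0.380%, and that of ITGA3 overlapped, at 30.4 ± 2.23% and 28.1 ± 1.32% (SD, n = 3). The two-sided exact permutation test gave p = 0.1, the smallest possible, for ITGA6, ITGA2 and ITGAV and p = 0.3 for ITGA3. Over the 13 shares compared, for alpha subunits, beta subunits and laminin alpha and beta chains, the smallest adjusted p of this exact test was 0.144. In CG the order of levels was ITGA6 (14.0 ± 1.61 RPKM), ITGA3 (10.8 ± 0.151), ITGAV (7.55 ± 0.366) and ITGA2 (2.81 ± 0.290), each apart from the next. In EG, ITGA3 (9.64 ± 0.305 RPKM), ITGA6 (9.42 ± 0.587) and ITGAV (9.39 ± 0.0349) overlapped, with ITGA2 (5.20 ± 0.255) below them.

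**Figure D4:**
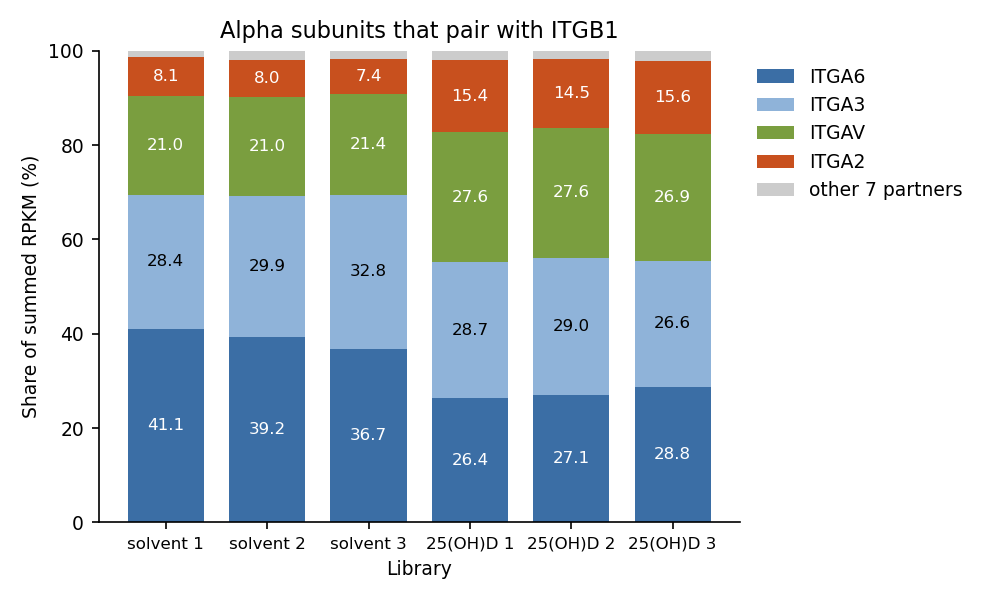
Share of the summed RPKM of the 11 alpha subunits that pair with ITGB1 (y axis, percent) in each library (x axis). The ITGA6 part is 36.7 to 41.1% in CG (solvent) and 26.4 to 28.8% in EG (25(OH)D), while the ITGA2 part is between 7.44 and 8.13% and between 14.5 and 15.6%.

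The proteins that work with integrins and laminins were taken as 8 lists with 62 genes, of which 61 were in the table and 50 were tested. Of these, 13 were higher (26.0%) and 8 lower (16.0%), against 17.3% and 16.5% of all genes tested. In the complex of ILK, PINCH and parvin proteins, which couples beta tails to actin, 3 of 4 tested genes rose and none fell. ILK, the central scaffold of that complex, went from 44.7, 50.7 and 51.5 CPM to 59.5, 57.1 and 60.9 CPM (log2 fold change 0.27, adjusted p = 0.00301). Among focal adhesion kinases and adaptors 2 of 11 rose, PTK2 and PTK2B. PTK2, the focal adhesion kinase, went from 179, 174 and 166 CPM to 251, 244 and 233 CPM (log2 fold change 0.49, adjusted p = 6.59e-07). Both genes lay apart between the groups.

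Actin linkers moved both ways, with 3 of 9 tested genes higher (ZYX, FLNA and ACTN4) and 2 lower (TNS3 and TNS1). ZYX, the zyxin of mature focal adhesions, was at 6.08, 4.23 and 4.35 CPM in CG and at 29.8, 32.0 and 40.6 CPM in EG. This was the largest fold change among the tested genes of the 8 lists, at 2.80 on the log2 scale (SE 0.141, adjusted p = 1.60e-09). TNS3, a tensin that binds beta tails, was lower in EG (log2 fold change -0.49, adjusted p = 5.65e-05). Of the proteins that bind beta tails to activate or inactivate integrins, 1 of 4 activators was lower, the kindlin FERMT2 (log2 fold change -0.26, adjusted p = 0.0141), and 1 of 4 inactivators was lower, ITGB1BP1 (log2 fold change -0.26, adjusted p = 0.0121).

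The partners of ITGA6 and ITGB4 in hemidesmosomes did not share a direction. PLEC, the plectin that ties ITGB4 to keratin, rose from 1250, 1160 and 1210 CPM to 1630, 1660 and 1710 CPM (log2 fold change 0.46, adjusted p = 2.19e-07), and the tetraspanin CD151 rose as well (log2 fold change 0.51, adjusted p = 4.09e-06). DST, whose epithelial form is a hemidesmosome plaque protein, fell from 231, 229 and 209 CPM to 120, 129 and 122 CPM (log2 fold change -0.85, adjusted p = 5.11e-09). The counts do not tell its isoforms apart. Among the other laminin receptors and network proteins 1 of 5 tested genes was called, BCAM, a receptor for LAMA5 chains, which fell (log2 fold change -0.17, adjusted p = 0.0148).

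Other integrin ligands were split, with 3 of 10 tested genes higher (NPNT, CDH1 and FBN1) and 2 lower (THBS1 and TNC). NPNT, the nephronectin ligand of the receptor of ITGA8 and ITGB1, rose from 209, 201 and 205 CPM to 332, 328 and 322 CPM (log2 fold change 0.68, adjusted p = 3.21e-09). THBS1, the matrix protein thrombospondin, fell from 1320, 1350 and 1360 CPM to 804, 788 and 808 CPM (log2 fold change -0.75, adjusted p = 2.12e-10). CDH1, the E-cadherin ligand of ITGAE, rose (log2 fold change 0.34, adjusted p = 0.00139).

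**Figure D5:**
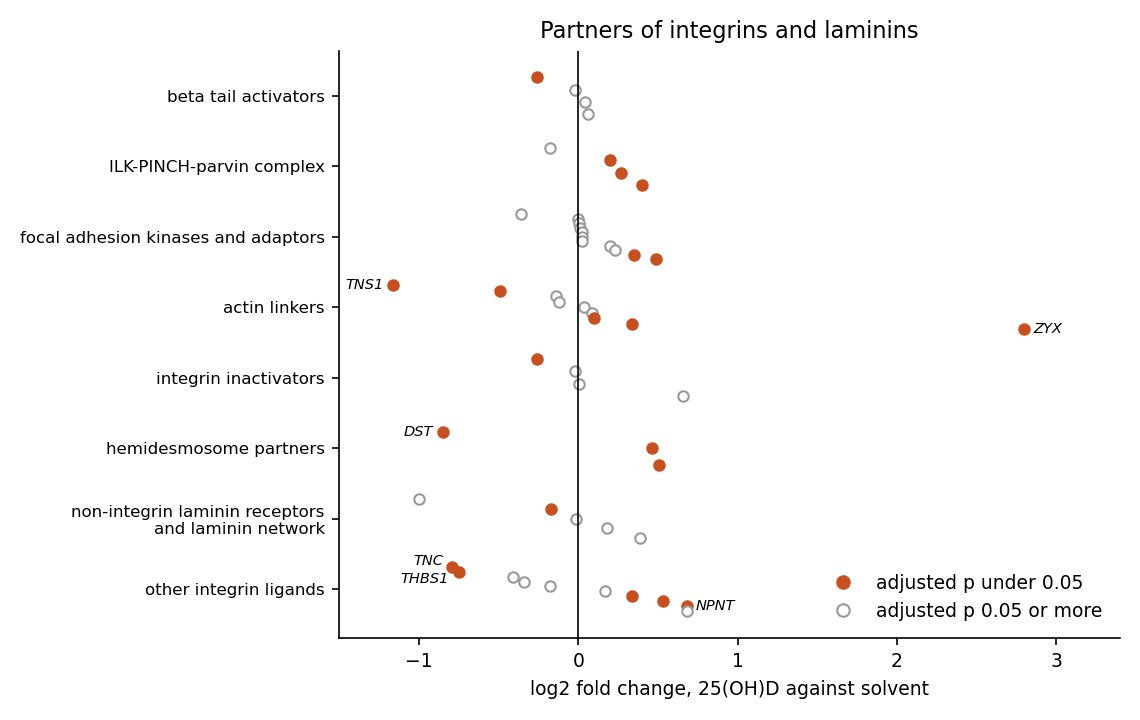
Log2 fold change of EG against CG (x axis) of the 50 tested genes in 8 lists of integrin and laminin partners (y axis, 1 row of points per list). Filled points have an adjusted p under 0.05. ZYX at 2.80 stands apart from the other points, and called genes lie on both sides of 0 in the actin linkers, the hemidesmosome partners and the other ligands.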

How the data were processed

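Total mRNA of 6 MDA-MB-453 libraries was prepared with a stranded kit and sequenced in pairs. The authors deposited a table of counts per gene, without normalization, and a table of RPKM. Per the submitters' processing notes, Trimmomatic 0.36, featureCounts of Subread 1.5.1, edgeR 3.12.1 and GRCh38 were used, and the strand setting is not given in the sources used here. Each RPKM value of the authors equalled the count divided by the exon length and the library total (largest relative difference 2.23e-13). Between 66.8% and 69.8% of the counts from 1 to 10 in a library were even, so that counts may hold both mates of a pair.

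Samples were grouped by the treatment labels, with 3 in each group. The study's methods call them biological replicates, but neither these nor the labels say that they came from separate cultures, so p-values measure the spread between these samples, which may be technical. The test of EG against CG was edgeR's quasi-likelihood test (edgeR 4.0.16, R 4.3.3) on counts scaled by TMM after the package's default filter (minimum count 10), without covariates and with Benjamini-Hochberg adjustment over 18183 genes. The procedure was also run on simulated counts, in which all genes shared a single dispersion. These did not cover small fold changes or changes in low-count genes. CPM use TMM-scaled library sizes. Ratios, shares and sums of RPKM went into a two-sided exact permutation test over libraries (SciPy 1.17.1). Standard errors are the log2 fold change divided by the square root of the F statistic. Alternatives were DESeq2 1.42.0, limma 3.58.1 on log2(RPKM + 1) and log2(RPKM + 0.1), other scalings and filters, the replicate block and each library left out. The main test did not pair samples by replicate number, and the labels do not say whether they were paired.

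Genes, lists, pairs and alternatives were chosen with earlier results of these data known. All described genes are accounted for, the called ones with every library, and from each list the gene with the smallest p in each direction among those called is named, beside other called genes. Exon positions are those of the deposited table, and exon overlaps were computed from it. ITGA8 and protein sequences were not analysed here, and 1 gene that the rule takes and 1 listed marker are not reported here.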

Additional observations from a re-analysis of the deposited data

How the results depend on the processing

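The direction of the 11 called genes held under all 15 alternatives, and LAMC1, LAMB2, ITGAL, ITGA2, ITGAV, ITGB5, ITGA6 and ITGB4 kept an adjusted p under 0.05 in each. The 2 laminin chains higher and 0 lower, and 4 to 5 integrin subunits higher, were found throughout. The integrin subunits lower in EG numbered 4, but 2 (ITGA6 and ITGB4) with no filter on low counts and with DESeq2 with its defaults. With a library left out they numbered from 2 to 4 (2 without CG replicate 1, 2 or 3 or EG replicate 2). The 4 found without EG replicate 3 were another set, ITGA5, ITGA6, ITGB4 and ITGB6, with ITGA3 and ITGAE lost. ITGB1, ITGA3 and ITGAE lost their calls in 6, 11 and 7 settings. With the replicate block, 3 integrin subunits were lower in place of 4 (ITGA3 lost, adjusted p = 0.0588), 5 were higher and 2 laminin chains were higher. The labels do not say whether the replicate numbers pair the samples. Deviations of same-numbered libraries correlated at -0.0721, -0.012 and -0.046, so that no shared effect of the number was visible, which cannot settle the design.

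Log2 fold changes that turned in sign were those of the uncalled genes LAMB3, LAMA5 and ITGA7. LAMB3 went from 0.0011 to -0.041 with upper-quartile factors, -0.043 with library sizes alone, -0.021 and -0.049 with limma on log2(RPKM + 1) and log2(RPKM + 0.1), -0.011 with the replicate block, and -0.14 to 0.13 with a library left out. LAMA5 went from 0.027 to -0.015, -0.017, -0.015 and -0.017 with the first 4 of these. ITGA7, at -0.20 (SE 0.389) in the main test, ranged from -0.64 to 0.043 with a library left out, and was at 0.043 without EG replicate 3. The cause was not tested. On log2(RPKM + 1), where the added 1 shrinks low genes, ITGAL stood at 0.63. ITGA10 passed the test without CG replicate 2 (log2 fold change 0.67, adjusted p = 0.0445). Log2 differences of the ratio ran from -0.12 to 0.13 for ITGA6 to ITGB4 and from -0.018 to 0.071 for ITGAV to ITGB5 with a library left out. The limit of a log2 fold change over 1 with an unadjusted p under 0.05 was passed upward by ITGAL, joined by ITGA2B with no filter on low counts and by ITGA2 without CG replicate 1, and by 0 genes with limma on log2(RPKM + 1). Depth limits the 16 genes that did not pass the filter, with at most 19 counts in any library.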

Other observations

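Genes that carry an integrin or laminin name without coding for a subunit were looked at separately. ITGB3BP, a centromere protein, had a log2 fold change of 0.031 (adjusted p = 0.820). ITGA9-AS1, which lies on the opposite strand of ITGA9 and shares 535 exon bases with it, had 67, 70 and 49 counts in CG and 80, 98 and 75 in EG (log2 fold change 0.57, edgeR adjusted p = 0.0456), and reads of the pair cannot be told apart if strand was not used. LAMA5-AS1 had between 44 and 66 counts in all libraries and was not called (log2 fold change 0.35, adjusted p = 0.297).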
